A study of Mus musculus with 135 samples.

Results

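The broadest H3K4me3 domains of mouse hepatocytes are the 500 widest of the 29138 H3K4me3 peaks listed by the authors for this cell type, ranked by end minus start on mm10 among the 28451 peaks on autosomes. They spanned 14.0 to 51.9 kb, with a median of 16.8 kb, against a median of 5.57 kb for the 12137 other peaks at promoters. They were chosen by measured width in hepatocytes, so widths and everything that follows from width are given as a description, without a test. The rank 500 domain, at Acsl5, was 13960 bases wide, and the next peaks, at Camk2n1, C230038L03Rik and Tbc1d2b, were 13950, 13949 and 13947 bases wide, so the limit cuts through a continuous distribution. All 500 were found on both genomes that the authors used, and 461 were also among the 500 widest autosomal peaks by the coordinates on the second genome.

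H3K4me3 is histone H3 with 3 methyl groups on its lysine 4, and is laid down at active promoters by the SET1 and MLL methyltransferase complexes, which are drawn to CpG-rich DNA. At most promoters the mark forms a sharp peak around the start site. At a minority it spreads far into the gene body, and such broad domains are known in many tissues for genes tied to the identity of the cell. Hepatocytes, the main cells of the liver, make plasma proteins, bile acids, glucose and urea, and clear drugs and other foreign compounds.

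The hepatocytes came from females of 8 weeks of the BXD75 and BXD87 recombinant inbred lines and of their founders C57BL/6J (B6) and DBA/2J (D2), with 3 H3K4me3 ChIP-seq libraries per strain on MNase-digested chromatin. Each inbred line is a fixed mosaic of both founder genomes. Cardiomyocytes of the same 4 strains also came from females of 8 weeks, embryonic stem cells were lines of the same 4 strains derived at embryonic day 3.5, and male germ cells were a crude isolate of 14-day-old males of B6, D2 and their F1 hybrid, the last used only in the fit. The labels give no agent or engineered allele for any of these groups, and the hepatocyte libraries share 1 antibody lot. Whether the libraries of a strain are separate animals is not labelled, and p-values measure only the spread between these libraries.

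The 12 hepatocyte libraries held 8.95 to 25.2 M reads in peaks, and a member domain held 356 to 14369 reads in a library, with a median of 2523.5. The tissue label was checked against markers. Of 10 hepatocyte markers, 8 had their start at 1 of the 500 domains: Cps1 (35.7 kb), Foxa3 (29.1 kb), Apob (22.7 kb), Hnf4a (22.05 kb), Alb (16.5 kb), Trf (15.3 kb), Apoa1 (14.5 kb) and Ttr (14.4 kb). Cebpa (10.3 kb) was among those with a narrower peak. No marker of leukocytes, liver endothelial cells, stellate cells, cholangiocytes, cardiomyocytes, pluripotent cells or meiotic cells lay at a member. Of these lists 2 of 18, 10 of 18, 4 of 14, 7 of 10, 3 of 21, 7 of 21 and 10 of 29 genes had a promoter peak in hepatocytes at all, and Pecam1, Cdh5, Stab1, Lyve1, Adgre1, Csf1r, Pdgfrb and Krt19 had none.

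Most domains lay at the start of a gene. An annotated start was inside or within 1 kb of 479 of the 500 members (95.8%), against 42.4% of the other peaks. To show what kind of promoter anchors such a domain, 4 stretches of 200 bases before the start site are printed 5′ to 3′ from RefSeq (GRCm38.p6), all on the plus strand, with CpG dinucleotides in capitals. Cyp2c29 (chr19:39286885-39287084), a cytochrome P450 of drug metabolism, and Sult3a1 (chr10:33857522-33857721), a sulfotransferase, stand for domains overlapped by no peak of the other 3 cell types. Adk (chr14:21075952-21076151), adenosine kinase and the widest domain of all, and Abca3 (chr17:24351823-24352022), a lipid transporter, stand for those with a peak in every cell type. Of the called members, Sult3a1 and Abca3 also had the largest differences between B6 and D2 hepatocytes.
Cyp2c29: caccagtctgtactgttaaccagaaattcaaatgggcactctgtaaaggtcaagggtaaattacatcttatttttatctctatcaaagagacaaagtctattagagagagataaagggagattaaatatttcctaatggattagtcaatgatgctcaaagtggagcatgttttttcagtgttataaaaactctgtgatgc
Sult3a1: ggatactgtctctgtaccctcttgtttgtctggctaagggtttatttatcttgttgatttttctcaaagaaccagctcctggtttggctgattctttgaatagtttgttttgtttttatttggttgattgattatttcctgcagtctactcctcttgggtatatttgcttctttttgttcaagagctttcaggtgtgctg
Adk: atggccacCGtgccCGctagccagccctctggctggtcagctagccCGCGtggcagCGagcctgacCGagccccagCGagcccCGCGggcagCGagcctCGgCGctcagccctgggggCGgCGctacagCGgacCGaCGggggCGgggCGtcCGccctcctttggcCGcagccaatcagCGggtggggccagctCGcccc
Abca3: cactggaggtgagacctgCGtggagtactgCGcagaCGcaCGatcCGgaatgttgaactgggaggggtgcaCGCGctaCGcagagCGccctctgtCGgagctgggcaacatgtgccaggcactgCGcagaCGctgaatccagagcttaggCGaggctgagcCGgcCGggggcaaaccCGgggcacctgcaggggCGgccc

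These windows hold 0 CpGs at Cyp2c29 and 0 at Sult3a1, but 23 at Adk and 17 at Abca3. Over RefSeq start windows of the same 200 bases, the 17 in domains with no peak elsewhere had a median of 1 CpG. Of these, 6 (35.3%) held none. The 732 in domains with a peak in all cell types had a median of 13, and 14 (1.91%) held none. In the most CpG-rich 500 bases of a domain, the median was 10 CpGs (range 5 to 26) for the 21 domains with no peak elsewhere. It was 14 for the 25 with a peak in 1 other cell type, 31 for the 59 with a peak in 2 and 56 for the 395 with a peak in all 3. The median was 52 for all members and 45 for the other promoter peaks. A wider peak holds more windows to take the highest from, so nothing is read from that gap. In the RefSeq start windows of 200 bases the median was 12 CpGs in members and 13 in other hepatocyte peaks. Over their whole length, members at promoters were poorer in CpG than the other promoter peaks, with medians of 15.9 and 21.5 CpGs per kb, and their GC content was 45.5% against 47.5%. Among RefSeq start windows of the same 200 bases, the letters TATAAA occurred on either strand in 5 of 17 windows (29.4%) of the domains with no peak elsewhere, in 33 of 732 (4.51%) of those with a peak in all cell types, and in 9.96% of all 32851 windows. TGTTTAC, the core bound by FOXA factors, occurred on either strand in 32 of the 856 member windows (3.74%) and in 2.51% of all windows. Its share was 2.96% in windows with no hepatocyte peak and 1.755% in those of other hepatocyte peaks. CAAAGTCCA, a HNF4 motif, occurred in only 6 member windows (0.701%) and in 0.317% of all. The 856 member windows belong to 667 genes, so some genes count more than once. These are matches of letters in a window.

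The domains reached mainly into the gene. Of the 312 members that hold the start of exactly 1 coding gene, 270 had over 50% of their length downstream of the outermost start, with a median of 80.2% and a median of 13.2 kb downstream against 3.57 kb upstream. In 25 of the 312 the domain ran past the far end of the gene. The Adk domain (chromosome 14, 21072170 to 21124096) extended 3.98 kb upstream and 47.9 kb downstream of the start. Foxa2, a pioneer transcription factor of liver (chromosome 2, 148021360 to 148051174), had 4.21 kb upstream and 25.6 kb downstream. Chd2, a chromatin remodeller (chromosome 7, 73528166 to 73561679), went the other way, with 19.9 kb upstream, where noncoding genes start, and 13.6 kb downstream. Starts of 2 coding genes lay inside 99 members and starts of 3 or more inside 58.

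The widest domains are given in order, with what their genes do. After Adk at 51.9 kb came Slc7a2, a transporter of cationic amino acids, at 40.7 kb, Baat, which conjugates bile acids to glycine or taurine, at 38.5 kb, Cps1, the entry enzyme of the urea cycle, at 35.7 kb, A1cf, the cofactor of apolipoprotein B RNA editing, at 34.9 kb, and Gpam, which starts triglyceride synthesis, at 34.4 kb. Arhgap42, a GTPase activator, was 34.2 kb wide, Chd2 33.5 kb, the domain over Alad, an enzyme of heme synthesis, 32.2 kb, Pard3, a cell polarity protein, 30.8 kb, and Col18a1, the collagen that gives rise to endostatin, 30.7 kb. The pair Rdh9 and Rdh16, retinol dehydrogenases whose starts share a domain, followed at 30.3 kb, and Foxa2 at 29.8 kb. Sar1b, which works in export of lipoproteins from the endoplasmic reticulum, was 29.4 kb wide, Onecut2, a transcription factor of liver development, 29.3 kb, Foxa3 29.1 kb, Dgat2, which completes triglycerides, 29.1 kb, Elovl2, a fatty acid elongase, 28.8 kb, and Cyb5a, an electron carrier, 28.2 kb.

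**Figure D1:**
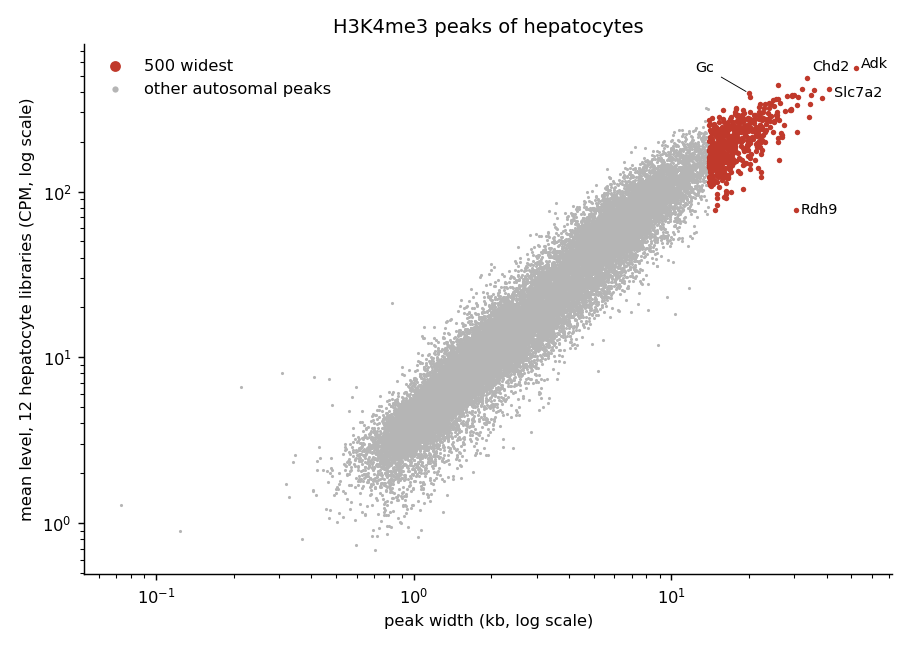
Width (kb, log axis) and mean level over the 12 hepatocyte libraries (counts per M reads in peaks, CPM, log axis) of each autosomal H3K4me3 peak. The 500 widest are in red and all others in grey, level climbs with width, and Rdh9 stands out by a low level for its width.

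The members held 1.72% of all hepatocyte peaks, 8.12% of the bases in peaks, and 9.67 to 10.6% of the reads in peaks of each library. By strain the share of reads was 10.4 ± 0.18% in B6, 10.3 ± 0.34% in D2, 9.97 ± 0.36% in BXD75 and 10.3 ± 0.13% in BXD87 (SD, n = 3 each), so it moved little between libraries. The level per length, in CPM per kb, had a median of 11.1 in members (quartiles 9.37 and 13.0) and 8.99 in other promoter peaks (6.74 and 11.1), and these ranges overlap widely. The densest members were Gc, the vitamin D-binding protein of plasma, at 19.5 CPM per kb, Sdc4, a heparan sulfate proteoglycan, at 19.5, Mgst1, a membrane glutathione transferase, at 19.4, Tgif1, a repressor of TGF-beta signalling, at 19.4, and Foxa1 at 18.5. Among the sparsest were the Rdh9 domain at 2.55 CPM per kb, Spef1, a flagellar protein whose domain also holds the start of the cell-cycle phosphatase Cdc25b, at 5.46, a domain inside Mob3b at 5.49, and the noncoding Gm42866 at 5.52.

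Regulators and enzymes of hepatocytes were often found at the members. Of 12253 coding genes with a promoter peak in hepatocytes, 714 (5.83%) had a start at 1 of the 500 domains. Over 6 lists of liver genes, the share was 69 of 215 genes (32.1%), in 68 domains. These shares describe the chosen domains and were not tested.

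Among hepatocyte transcription factors 17 of the 35 with a promoter peak (48.6%) lay at a member. The widest were Foxa2 (29.8 kb), Onecut2 (29.3 kb), Foxa3 (29.1 kb), Nfic, a nuclear factor I protein (25.9 kb), and Ppara, the fatty acid sensor that drives lipid oxidation (25.03 kb). The list also placed nuclear receptors there, with Rxra (22.4 kb), the partner of many of them, Hnf4a (22.05 kb), the bile acid receptor Nr1h4 (20.1 kb), Nr5a2 (18.9 kb) and the drug sensor Nr1i2 (17.7 kb). Plasma protein genes had 15 of 43 at a member (34.9%), led by Apob, the backbone of very low density lipoprotein (22.7 kb), Fgb of fibrinogen (22.6 kb), the thrombin inhibitors Serpind1 (18.3 kb) and Serpinc1 (18.2 kb), and the complement factor Cfb (17.3 kb). All 3 fibrinogen chains had a member each, lying side by side, with Fgg (16.8 kb) 2.67 kb from Fga (15.5 kb) and Fga 3.68 kb from Fgb.

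Lipid and cholesterol metabolism had 13 of 44 genes at a member (29.5%). Its widest domains were Gpam (34.4 kb), Dgat2 (29.1 kb), the fatty acid elongase Elovl5 (22.7 kb), the fatty acid carrier Fabp1 (22.1 kb) and Acsl1, which activates fatty acids (21.5 kb). Xenobiotic metabolism had 11 of 41 (26.8%), with the glucuronosyltransferases Ugt2b36 (22.4 kb) and Ugt2b34 (16.8 kb), the glutathione transferase Gstt1 (21.8 kb) and the cytochromes P450 Cyp2c29 (20.8 kb) and Cyp2b10 (16.1 kb). Glucose, amino acid and urea metabolism had 9 of 35 (25.7%), with Cps1 (35.7 kb), the tyrosine-degrading Tat (21.1 kb), the aspartate aminotransferase Got1 (18.004 kb) and the glucose 6-phosphate transporter Slc37a4 (17.8 kb). Bile acid genes had 4 of 17 (23.5%): Baat, the sinusoidal uptake carrier Slc10a1 (20.4 kb), the canalicular exporter Abcc2 (20.1 kb) and the phospholipid exporter Abcb4 (14.2 kb).

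Lists that every cell type uses were nearer to the background of 5.83%. Insulin and growth factor signalling had 8 of 63 genes at a member (12.7%), among them Egfr (22.3 kb), the growth hormone effector Igf1 (20.1 kb), Stat5b (17.9 kb), the insulin receptor substrate Irs2 (15.8 kb) and Igfals, which carries Igf1 in plasma (15.4 kb). The circadian clock had 3 of 24, Rora (22.4 kb), Per1 (15.1 kb) and Tef (14.8 kb), and immediate early and stress genes 7 of 62, led by the repressor Bcl6 (26.02 kb), Junb (18.9 kb), Zfp36l1 (18.3 kb), Dusp6 (16.8 kb) and Cdkn1b (16.3 kb). H3K4 methylation genes had 2 of 25, Kmt2e and the methyltransferase Setd1b, and housekeeping genes 2 of 27, B2m (18.7 kb) and Chmp2a (15.9 kb). None of the 4 Hox genes with a promoter peak lay at a member.

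**Figure D2:**
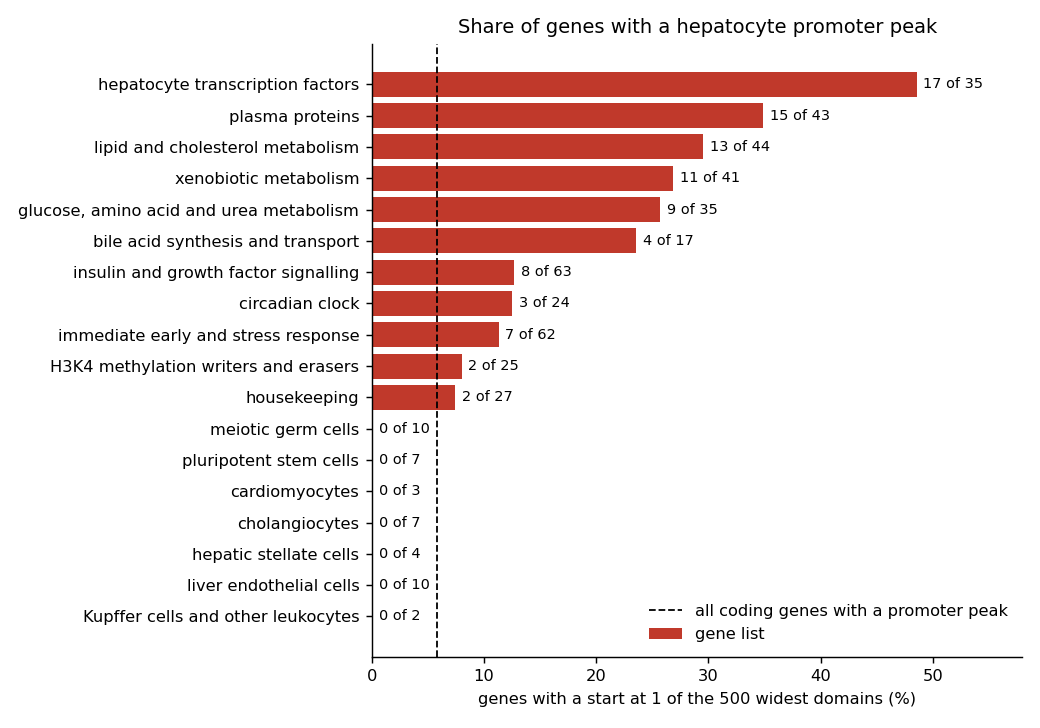
Share (%) of the genes of each list that have a start at 1 of the 500 widest domains, of those with a promoter peak in hepatocytes, with both numbers beside each bar. The dashed line is the 5.83% of all coding genes, and hepatocyte transcription factors reach 48.6%.

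The other cell types marked most of these loci, but over a shorter stretch. A peak shared at least 1 base with 422 members in cardiomyocytes (84.4%), 449 in stem cells (89.8%) and 457 in germ cells (91.4%), against 81.0%, 85.6% and 86.1% of the other hepatocyte promoter peaks. The share of a member covered by such peaks had a median of 44.8% in cardiomyocytes, 42.3% in stem cells and 28.4% in germ cells, where the other promoter peaks had 64.8%, 68.1% and 52.7%. A domain chosen for its width in 1 cell type is bound to be covered less elsewhere, so nothing is read from that difference. The matched peak, the one with the most shared bases, had a median width of 7.62 kb in cardiomyocytes, 5.56 kb in stem cells and 3.62 kb in germ cells. At Slc7a2 it was 2.39, 3.84 and 3.84 kb against 40.7 kb in hepatocytes. At Cps1 only germ cells had a peak, of 1.44 kb and away from the start.

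**Figure D3:**
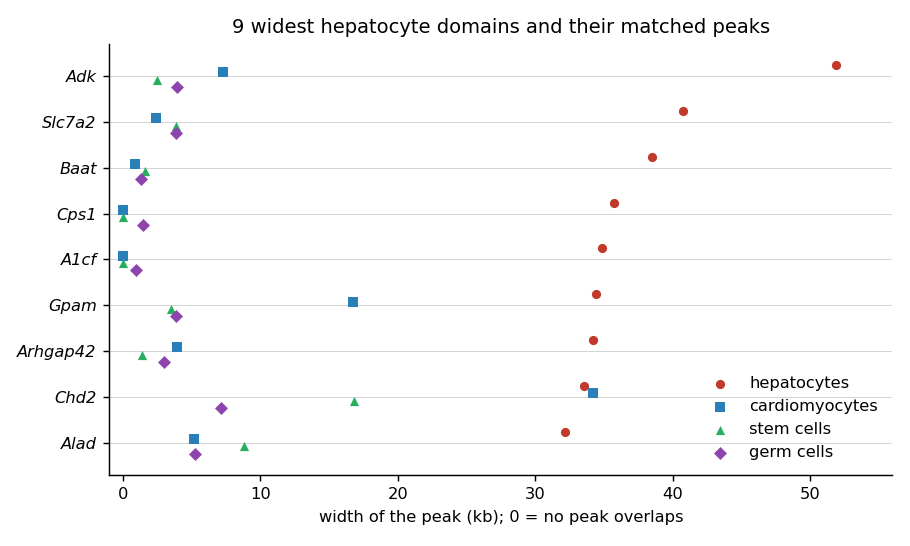
Width (kb) of the 9 widest hepatocyte domains and of the peak matched to each in cardiomyocytes, stem cells and germ cells, with 0 where no peak overlaps. Chd2 at 33.5 kb in hepatocytes and 34.2 kb in cardiomyocytes is the 1 domain of the 9 with a matched peak as wide as its own.

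Some domains were seen in hepatocytes alone. The 21 members with no peak in the other 3 cell types were led by the Rdh9 and Rdh16 domain (30.3 kb), a domain inside Rora (26.2 kb) 2.29 kb from the one at the Rora start, Ugt2b36 (22.4 kb), Pigr, which carries immunoglobulin A into bile (22.01 kb), and Cyp2c29 (20.8 kb). Abcc2 (20.1 kb), Cmah, which makes a sialic acid (18.8 kb), Serpind1 (18.3 kb), a domain inside Nedd4l (16.9 kb) and Ugt2b34 (16.8 kb) came next. Alb, the gene of serum albumin, was in the same set (16.5 kb).

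Few members were broad everywhere. In 377 members no matched peak ranked among the 500 widest of its own cell type, while 71 did so in cardiomyocytes, 46 in stem cells and 48 in germ cells. Those limits differ, at 18.3 kb in cardiomyocytes, 14.5 kb in stem cells and 6.20 kb in germ cells. The 9 that did so in all 3 were Chd2, the architectural noncoding RNA Neat1, the CCAAT-box subunit Nfyc, Kmt2e, the transcription factor Nfib, the chromatin regulator Anp32a, the splicing regulator Qk, the muscle and neuron factor Mef2d, and Setd1b. Nfib was 20.3 kb wide in hepatocytes, 37.6 kb in cardiomyocytes, 18.2 kb in stem cells and 12.5 kb in germ cells. Qk was 14.2, 37.8, 19.9 and 8.07 kb wide in the same order.

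Next the founders were compared, to see which broad domains differ in level between B6 and D2 hepatocytes. Levels in CPM use the normalised library size and were tested with edgeR's quasi-likelihood test over 29137 peaks with Benjamini-Hochberg adjustment, and called at an adjusted p under 0.05. Of the 500 members 41 were called, 24 higher and 17 lower in B6, where 15.8% of all tested peaks were called, 7.36% higher and 8.41% lower. Among the other promoter peaks 1124 of 12137 (9.26%) were called. No member differed over 2-fold, either by edgeR, by an unadjusted p under 0.05 (0 members) or by DESeq2 (0 members), while 6.84% of all peaks were called with over 2-fold. The median log2 difference was 0.03 over members and 0.01 over all peaks, and its median size 0.06 over members and 0.15 over all peaks. The count of members was 22 without B6 replicate 1, 24 without D2 replicate 1, 20 without D2 replicate 2 and 27 without BXD87 replicate 2. Over all peaks 3683, 3694, 3602 and 4254 were called in the same order, against 4593 with every library. The libraries did not all group by founder. The log2 difference over the members had an SD of 0.179 between D2 replicate 3 and B6 replicate 3. Between D2 replicate 3 and D2 replicates 1 and 2 it was 0.235 and 0.211. The effect of this on the calls was not tested.

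Markers of other liver cells with a promoter peak were summed in the same libraries, over 10 endothelial, 4 stellate, 2 leukocyte and 7 cholangiocyte genes. The endothelial and stellate lists did not overlap between the founders, as for 30.7% of all peaks, and the leukocyte and cholangiocyte lists did. The summed level of the endothelial list was 91.5 to 105 CPM in B6 and 116 to 193 CPM in D2, that of the stellate list 68.1 to 84.1 and 88.4 to 96.1 CPM, that of the leukocyte list 61.3 to 77.5 and 46.4 to 67.2 CPM, and that of the cholangiocyte list 301 to 306 and 283 to 322 CPM. Their part in the results below was not tested. In such bulk libraries fewer marked cells and less of the mark per cell cannot be told apart.

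The clearest difference was at Abca3. Its domain (chromosome 17, 24349016 to 24366649, with the start of Abca17 as well) had 135, 131 and 144 CPM in B6 hepatocytes, against 264, 244 and 251 CPM in D2 hepatocytes, a log2 difference of -0.89 (SE 0.08, edgeR adjusted p = 1.62e-07). The groups lay far apart. Sult3a1 (chromosome 10, 33850202 to 33866503) had 129.8, 118 and 151 CPM in B6 and 280.0, 257 and 197 CPM in D2, a log2 of -0.88 (SE 0.20, edgeR adjusted p = 0.00689). The domain over Alad (chromosome 4, 62494911 to 62527071, with the starts of Hdhd3 and Pole3) had 341, 345 and 345 CPM in B6 and 524, 498 and 591 CPM in D2, a log2 of -0.65 (SE 0.08, edgeR adjusted p = 8.38e-06). It was also 8.10 kb wider on the second genome, at 40.3 kb.

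In the other direction stood Nnmt, which methylates nicotinamide, with 124, 159 and 166 CPM in B6 and 84.4, 98.6 and 91.6 CPM in D2, a log2 of 0.71 (SE 0.14, edgeR adjusted p = 0.00128). Fgl1, a fibrinogen-like protein secreted by liver, had 303, 307 and 299 CPM in B6 and 180, 196 and 253 CPM in D2 (log2 0.53). Ppara had 438, 364 and 366 CPM in B6 and 296, 286 and 263 CPM in D2 (log2 0.47), so each B6 library was above each D2 library for both genes. Adipor2, a receptor of adiponectin, had 2 members side by side, 1.14 kb apart, and both were higher in B6, by a log2 of 0.52 and 0.29. The peroxisomal transporter Abcd3 (log2 0.50), the lipid transfer protein Pctp (0.50) and Zbtb39 (0.41) were higher in B6 too.

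Lower in B6 were Cyp2b10 (log2 -0.56), Fam13b (-0.52), the domain shared by the interferon-induced GTPases Irgm2 and Igtp (-0.52), Glo1, which detoxifies methylglyoxal (-0.47), and Adra1b, an adrenergic receptor (-0.40). Cyp2b10 was the exception among the called members, since its groups overlapped, with 135, 159 and 138 CPM in B6 against 255, 237 and 143 CPM in D2. Without D2 replicate 1, D2 replicate 2, B6 replicate 1 or B6 replicate 3, or without any BXD87 library, its edgeR adjusted p missed the threshold, with a largest value of 0.149. In the other 40 called members the libraries of the founders did not overlap. Over all members 92 did not overlap, against 30.7% of all peaks. Irgm2, Cyp2b10, Sult3a1 and the Rdh domain belong to families of near-identical copies, so their reads may be shared with a related gene.

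Of the liver lists 6 of 68 member domains were called between the founders, 4 higher and 2 lower in B6, against 41 of all 500 members (8.2%) and 15.8% of all peaks. Higher were Ppara, Acsl1 (log2 0.36), Ehhadh, a peroxisomal enzyme of fatty acid oxidation (0.28), and the clotting factor F5 (0.25). Lower were Cyp2b10 and the clotting factor F11 (-0.28).

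The BXD75 and BXD87 lines were compared in the same fit, which shares 1 estimate of the spread over all 12 libraries with the founder comparison. Their libraries did not all group by line. The log2 difference over the members had an SD of 0.150 between BXD75 replicate 3 and BXD87 replicate 3. Between BXD75 replicate 3 and BXD75 replicates 1 and 2 it was 0.197 and 0.178. What this did to the calls was not tested. The lines differed at 7 of the 500 members, 5 higher and 2 lower in BXD75, where 4.89% of all tested peaks were called, 2.84% higher and 2.05% lower. Among the other promoter peaks 287 of 12137 (2.36%) were called. Of the members 1 differed over 2-fold, against 2.43% of all peaks. The count of members was 4 without BXD87 replicate 2, where 1064 of all peaks were called against 1425 with every library. With a replicate block it was 11. All 7 were among the 41 founder calls, which makes 17.1% of those. Over all peaks 1074 were called in both, which makes 75.4% of the line calls and 23.4% of the founder calls. At Abca3 BXD75 had 155, 142 and 164 CPM and BXD87 250.5, 264 and 252 CPM, a log2 of -0.73 (SE 0.08, edgeR adjusted p = 2.79e-06), so BXD75 lay near the B6 libraries and BXD87 among the D2 libraries. At Alad BXD75 had 496, 493 and 491 CPM and BXD87 303, 269.7 and 263 CPM, a log2 of 0.82 (SE 0.08, edgeR adjusted p = 9.04e-07). At Arid5b, a regulator of fat storage, BXD75 had 195, 176 and 165 CPM and BXD87 227, 242 and 229.7 CPM (log2 -0.38), while B6 had 236, 222 and 233 CPM and D2 183, 196 and 178 CPM.

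Sult3a1 differed most between the lines, with 98.5, 121 and 76.6 CPM in BXD75 against 21.2, 31.4 and 36.8 CPM in BXD87, a log2 of 1.71 (SE 0.21, edgeR adjusted p = 0.000101). The BXD87 libraries lay below every library of B6 and D2 as well, the lowest of which had 118 CPM. So did the BXD75 libraries with 98.5 and 76.6 CPM. Between founder and line libraries the SD of the log2 difference over the members was 0.221 to 0.387. Between B6 and D2 libraries it was 0.167 to 0.240. The part of this in levels set against the founders was not tested. Fgl1 had 276, 241 and 234 CPM in BXD75 and 161, 172 and 168 CPM in BXD87 (log2 0.58). Nnmt had 87.7, 67.5 and 99.3 CPM in BXD75 and 52.0, 57.6 and 65.95 CPM in BXD87 (log2 0.54), and it missed the threshold without BXD75 replicate 1 or 3 or BXD87 replicate 1 or 2. Pctp had 186, 181 and 154 CPM in BXD75 and 143, 141 and 142 CPM in BXD87 (log2 0.29), a call that held in 5 of 16 other settings. The call at Arid5b was lost without BXD87 replicate 2. In all 7 the libraries of the lines did not overlap, as for 56 members and 17.4% of all peaks.

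**Figure D4:**
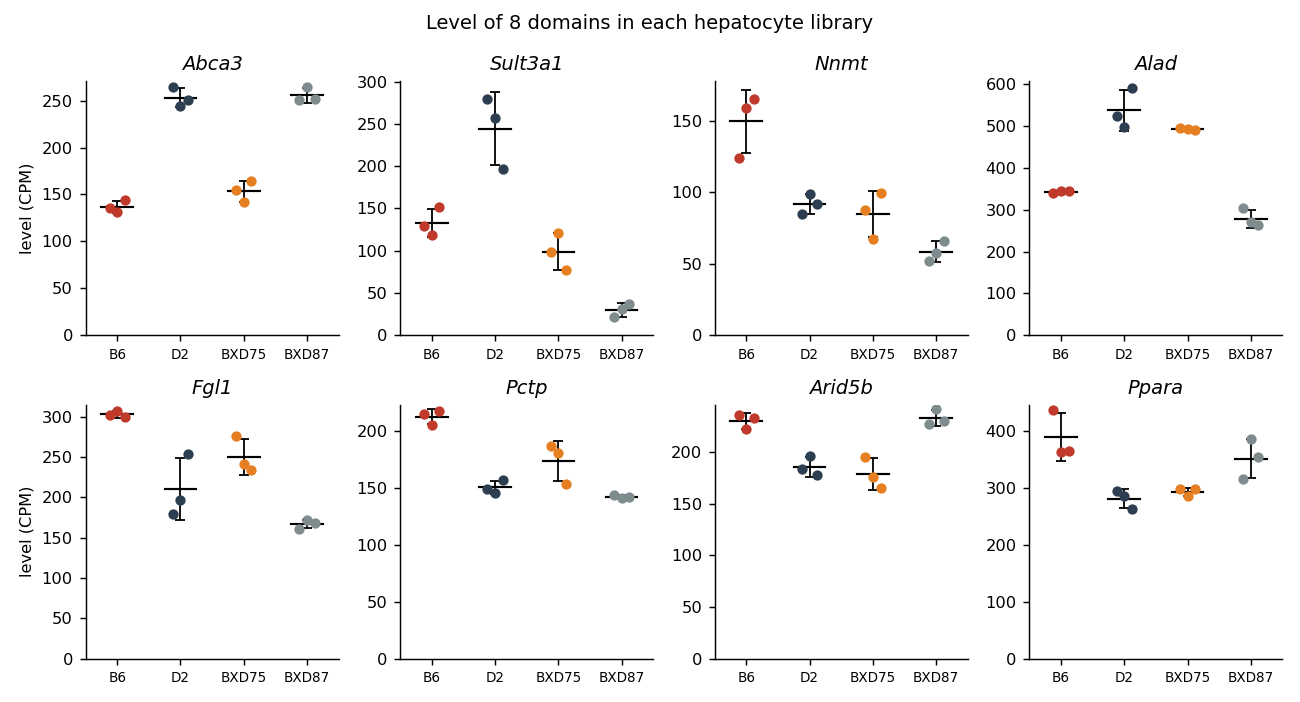
Level (CPM) of 8 member domains in each hepatocyte library of B6, D2, BXD75 and BXD87, with points for the 3 libraries and bars for the mean and SD. The first 7 were called in both comparisons and Ppara between the founders alone. BXD87 lies with D2 at Abca3, below all other strains at Sult3a1 and with B6 at Arid5b.

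The same founder comparison was made at the peaks matched to the members in the other cell types, in libraries that the choice of members did not use. In cardiomyocytes 48 of 422 matched peaks were called, 38 higher and 10 lower in B6, where 6.51% of all tested peaks were called, 4.06% higher and 2.45% lower. Over 2-fold were 11 of these, against 1.75% of all peaks. Among the other promoter peaks of cardiomyocytes 1054 of 12519 (8.42%) were called. The count of matched peaks was 27 without B6 replicate 1, 26 without D2 replicate 2, 80 without B6 replicate 2 and 85 without BXD75 replicate 1. Over all peaks 533, 502, 3679 and 3841 were called in the same order, against 1551 with every library. The D2 cardiomyocyte libraries were the shallowest, with 2.62 to 4.10 M reads in peaks against 6.84 to 8.34 M in B6. In stem cells 61 of 449 were called, 32 higher and 29 lower, where 30.6% of all peaks were called, 14.8% higher and 15.8% lower, and 6 differed over 2-fold, against 11.9% of all peaks. Among the other promoter peaks of stem cells 3148 of 18073 (17.4%) were called. The count of matched peaks was 40 without the B6 line 49, where 14707 of all peaks were called against 20566 with every line. In germ cells 23 of 457 were called, 15 higher and 8 lower, where 17.3% of all peaks were called, 9.23% higher and 8.11% lower, and 11 differed over 2-fold, against 12.6% of all peaks. Among the other promoter peaks of germ cells 1447 of 19042 (7.60%) were called. Without 1 of the B6 libraries (B62, B63 or B64) the count of matched peaks was 58, 37 or 12. Over all peaks 10122, 16222 or 7639 were called, against 11631 with every library. Of the 58 matched peaks called without B62, 53 were higher in B6.

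The matched peak with the largest founder difference in cardiomyocytes was at St3gal4, a sialyltransferase, where B6 had 232, 233 and 221 CPM and D2 31.2, 33.2 and 47.6 CPM, a log2 of 2.64 (SE 0.16, edgeR adjusted p = 2.93e-07). In hepatocytes the St3gal4 domain, the rank 21 of all, had 312, 312 and 309.9 CPM in B6 and 289, 287 and 296 CPM in D2 (log2 0.10, edgeR adjusted p = 0.567). Its peaks were as broad in both cell types, at 27.5 kb in hepatocytes and 28.9 kb in cardiomyocytes. Coq8a, a kinase-like protein of coenzyme Q synthesis, had 269.7, 322 and 312 CPM in B6 and 122.6, 118 and 114 CPM in D2 cardiomyocytes (log2 1.349), against a log2 of -0.16 (edgeR adjusted p = 0.46) in hepatocytes. Qk (log2 1.54) and Sh3bp5, a mitochondrial partner of the kinase JNK (1.29), were higher in B6 cardiomyocytes as well, and Etnk2, an ethanolamine kinase, was lower (-1.82).

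Some loci were called in several cell types. Of the members 28 (5.6%) were called in 2 or more, against 4.57% of all hepatocyte peaks, 6 in 3 or more (1.2% against 0.662%) and 3, at Alad, Irgm2 and Glo1, in all 4 (0.6% against 0.0686%). Among the other promoter peaks the shares were 3.85%, 0.643% and 0.0906%. The called peaks at Alad and at Irgm2 differed in direction between cell types. At Glo1 B6 was lower in each cell type. It had 231, 180.4 and 195 CPM in B6 hepatocytes against 303, 268 and 272 CPM in D2, with a log2 of -0.47 in hepatocytes, -0.75 in cardiomyocytes, -0.83 in stem cells and -0.98 in germ cells. No level was set against input, so the part of DNA copy number at Glo1, Alad or any other locus was not tested. Fgl1 was higher in B6 hepatocytes, and so were its matched peaks in cardiomyocytes (log2 1.18) and germ cells (1.59). The cardiomyocyte peak was at the overlapping noncoding gene Gm16348. Another germ cell peak in the Fgl1 domain, away from any start, was lower in B6. It had 0.522, 0.503 and 0.123 CPM in B6 and 10.1, 8.28 and 8.105 CPM in D2 (log2 -4.43, edgeR adjusted p = 6.14e-09). A further germ cell peak there missed the threshold (log2 0.79). At Abca3 the matched peaks missed the threshold, with a log2 of -0.17, -0.03 and -0.09 in cardiomyocytes, stem cells and germ cells, and the difference from hepatocytes was not tested there.

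The difference itself was tested in 1 fit of both cell types, over peaks matched at 50% reciprocal overlap, a test chosen after seeing the data. The founder difference differed between hepatocytes and cardiomyocytes at 17 of 174 members (6.97% of all matched peaks), at St3gal4 by a log2 of -2.57 and at Coq8a by -1.53. It differed between hepatocytes and stem cells at 10 of 87 members (10.8% of all), and between hepatocytes and germ cells at 0 of 13 by edgeR (8.42% of all). Of these 13 members, 3 had an unadjusted p under 0.05.

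A broad domain can hold several separate peaks of another cell type, and these did not always move together. Inside the Alad domain, the peak at the start of Hdhd3 was lower in B6 in cardiomyocytes (59.4, 53.7 and 57.8 CPM in B6, 142, 134 and 142 CPM in D2, log2 -1.29), in germ cells (34.6, 48.7 and 46.3 against 132, 150 and 150 CPM, log2 -1.73) and in stem cells (25.6, 25.97 and 22.8 against 40.0, 33.1 and 46.4 CPM, log2 -0.68). The peak over the starts of Alad and Pole3 was higher in B6 in stem cells, with 80.3, 86.1 and 77.2 CPM in B6 and 28.8, 31.5 and 35.4 CPM in D2 (log2 1.3502, edgeR adjusted p = 6.12e-10). In germ cells the peak at the Pole3 start missed the threshold (log2 -0.08). At the Irgm2 domain the broad cardiomyocyte peak of 27.3 kb over both starts was higher in B6 (log2 0.54), while small peaks away from any start were lower in B6 in stem cells (-0.67) and germ cells (-3.22). The germ cell peak at both starts missed the threshold (log2 0.41). At Nnmt a germ cell peak away from the start was lower in B6 (0.913, 1.76 and 1.48 CPM against 11.4, 12.02 and 9.03 CPM, log2 -2.91), in the opposite direction to the hepatocyte domain. The germ cell peak at the Nnmt start had a log2 of 1.85, in the direction of the hepatocyte domain. It missed the threshold (edgeR adjusted p = 0.0554).

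**Figure D5:**
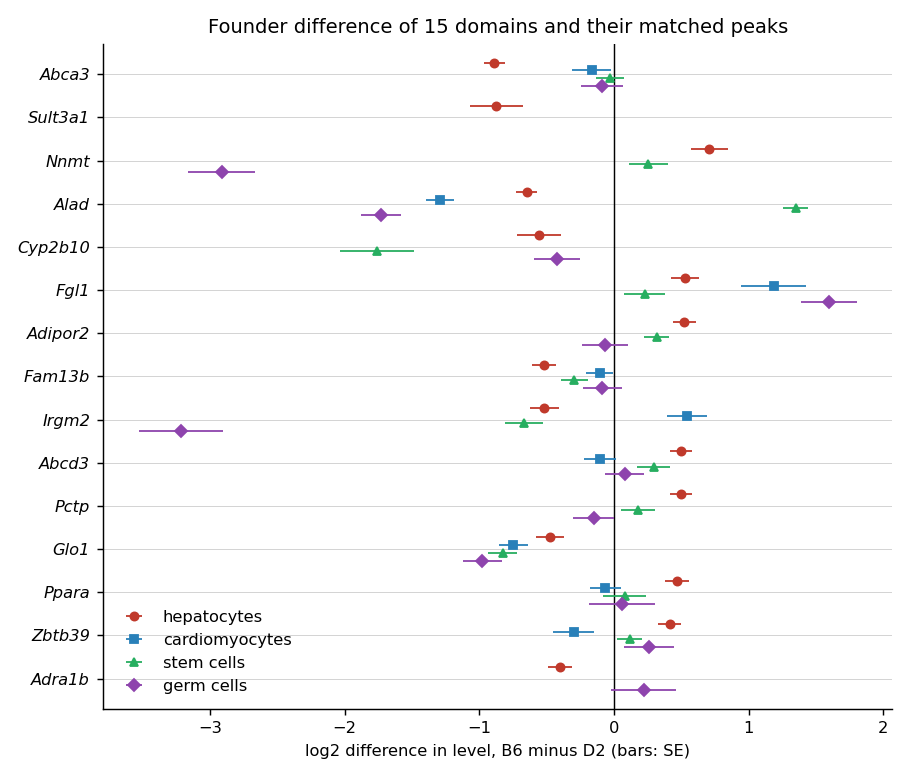
Log2 difference in level between B6 and D2 (B6 minus D2, bars are SE) of the 15 called hepatocyte domains with the largest difference and of the peak matched to each in the other cell types, with no point where none overlaps. Points right of 0 are higher in B6, and Glo1 lies left of 0 in all 4 cell types.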

How the data were processed

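H3K4me3 ChIP-seq was measured in 123 samples, of which the hepatocyte, cardiomyocyte, stem cell and founder germ cell libraries were used here. The 12 input samples have no column in the tables. The deposited tables of the authors hold counts, whole-number reads per peak. Peak positions are in other deposited lists, as coordinates on mm10 beside those of another genome of unnamed build. CASAVA 1.8, BWA 0.5.10 and MACS 1.4.2 are named, per the submitters' processing notes, and germ cell libraries were made with another kit than the rest, per the labels' protocols. How the peaks of the libraries were merged into 1 list, which sets their widths, no source used here gives, nor whether the first base is counted from 0 or 1.

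Genes were assigned from GENCODE M21 starts inside a peak or within 1 kb of it. A domain with several coding starts is named by the gene whose body covers most of it. The members, gene lists and named genes were chosen with earlier results of these data known. Named, except for a few genes not reported here, were the 20 widest members, the 15 and 10 called members with the largest differences between founders and lines, up to 5 per list by width, the 10 widest with no peak elsewhere and the 9 among the widest everywhere, the extremes of level per length, and up to 10 called in several cell types. Others, such as Alb, Rxra, Nr5a2, St3gal4, Etnk2, Coq8a, Sh3bp5 and the members of the liver lists called between founders, were chosen after their values were seen. Other tables of the whole series, such as the BXD germ cell panel, were not used here.

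The count model was edgeR 4.0.16 (R 4.3.3), using TMM factors after filterByExpr and a robust glmQLFit followed by glmQLFTest, in 1 fit of all strains per cell type, with p-values adjusted over all peaks tested. CPM are scaled by normalised library size. In stem cells libraries of 1 line were summed. The germ cell fit held B6, D2 and their F1, all of antibody lot 2557645, while lot 2746331 was used in the other cell types. On simulated counts the fit was tested with changed peaks before use. Same-numbered libraries of different strains deviated together, with a correlation over 0.1, in 5 of 18 pairs in hepatocytes and 8 of 18 in cardiomyocytes, so replicate number was not a block. Alternatives were RLE size factors, DESeq2 1.42.0, no filter on low counts, a replicate block, leaving out each library, other numbers of widest peaks and other overlaps. The test of the founder difference between cell types, over peaks matched at 50% reciprocal overlap, was chosen after seeing the data.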

Additional observations from a re-analysis of the deposited data

Results flagged for a closer look

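Members whose founder difference (B6 minus D2, log2) differed between hepatocytes and another cell type are listed here, by the strain by cell type term of an edgeR quasi-likelihood fit over peaks matched at 50% reciprocal overlap. This test was chosen after seeing the data. Against cardiomyocytes 17 of 174 members were called, where 6.97% of all matched peaks were called, and 16 of them were negative, meaning B6 higher relative to D2 in cardiomyocytes than in hepatocytes, as were 339 of the 567 calls over all matched peaks (59.8%). The difference was -2.57 at St3gal4 (edgeR adjusted p = 3.29e-09), -1.53 at Coq8a, -1.37 at Cxadr, the coxsackievirus and adenovirus receptor, -1.36 at Gm44965, -1.15 at Reep3, -1.12 at Nudt4 and -1.09 at Nudt7, a peroxisomal hydrolase of coenzyme A. It was -1.08 at Irgm2, -1.03 at Nfyc, -0.935 at Ccdc85c, -0.877 at Got1, -0.876 at Akap1, -0.788 at Aff1, -0.708 at Bcl6, -0.585 at Tshz1 and -0.571 at AC154766.4. At Pcsk4 it was 0.62. At Cxadr B6 was lower in hepatocytes (log2 -0.36) and higher in cardiomyocytes (0.98), and at Nudt7 likewise (-0.34 and 0.73). The D2 cardiomyocyte libraries held 2.62 to 4.10 M reads in peaks, fewer than all others used, and the part of depth in these differences was not tested.

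Against stem cells 10 of 87 members were called, where 10.8% of all matched peaks were called. The difference was -0.67 at Cth, which makes cysteine, -0.575 at AC154766.4, -0.475 at Rrbp1, -0.474 at the folate enzyme Mthfd1 and -0.422 at Ier2. It was 0.562 at Acaa2, a thiolase of fatty acid oxidation, 0.516 at Commd1, 0.442 at Hs6st1, 0.37 at Arid5b and 0.366 at Glo1 (edgeR adjusted p = 0.048). At Glo1 B6 was lower in both cell types and the gap was wider in stem cells. Against germ cells 0 of 13 members were called by edgeR, where 8.42% of all matched peaks were called. Of these 13 members, 3 had an unadjusted p under 0.05.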

How the results depend on the processing

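Leaving out each library in turn gave 20 to 48 members called between the founders in hepatocytes (41 as reported), 4 to 10 between the lines (7), and 26 to 85, 40 to 84 and 12 to 58 matched peaks in cardiomyocytes, stem cells and germ cells (48, 61 and 23). Each such fit holds fewer samples. Counts both fell and rose with a library left out, and the cause was not tested. With a replicate block 53 members were called between the founders, 11 between the lines and 37 matched peaks in cardiomyocytes, and no block could be had in stem and germ cells. Of the 250 widest peaks 20 and 3 were called in hepatocytes, and of the 1000 widest 78 and 16, as their number alone would change the count. At 50% reciprocal overlap 174, 87 and 13 members had a match, of which 22, 13 and 0 were called by edgeR, and of the last 1 had an unadjusted p under 0.05 and 0 were called by DESeq2. At least 50% of the length was covered in 234, 205 and 66 members, and peaks found on both genomes overlapped 365, 434 and 439. The share of reads was 5.95% in the 250 and 17.3% in the 1000 widest. The median width was 17.2 kb by second-genome width and 16.8155 kb with the X chromosome ranked too. Normalisation, DESeq2 and the low-count filter moved no count by over 1.5 times. Of 592 values of named genes under these settings 562 kept their direction and their side of the threshold, 30 lost the call and 0 reversed. The D2 cardiomyocyte libraries were the shallowest, with 2.62 to 4.10 M reads in peaks, and what this limits was not tested. Intervals of width cannot be had from 1 merged list.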

Other observations

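Some members hold no gene start. Of the 21 with none within 1 kb, 19 lay inside a gene body, such as Rora (26.2 kb), Elovl5 (22.4 kb), Abca1 (19.3 kb), Shb (19.3 kb) and Mob3b (18.9 kb), and 2 between genes, nearest to Trim27 (17.5 kb) and to Tdo2, the tryptophan-degrading enzyme of liver (14.67 kb). Several continue a domain at the start of the same gene after a short gap: 2.29 kb at Rora, 3.22 kb at Elovl5 and 2.25 kb at Nr5a2. In all, 13 pairs of members lay under 10 kb apart. Other members join many genes. Lin37 lay in a domain with 7 coding starts, and Vegfb, Tprn and Gm20683 in domains with 6 each.

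Width on the second genome differed by at most 1 kb in 434 members, was greater by over 1 kb in 54 and smaller by over 1 kb in 12. U2af2, a splicing factor, was 25.9 kb wide on mm10 and 38.5 kb on the second genome, Mat1a, which makes S-adenosylmethionine in liver, 19.1 and 25.3 kb, and Selenoi 19.686 and 13.4 kb.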
